A study of Mus musculus with 6 samples.

Results

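Pericytes of the adult mouse brain were described from single-cell RNA sequencing of cerebral vascular cells. A cell was taken as a pericyte when the transcripts of *Kcnj8*, *Abcc9*, *Atp13a5* and *Vtn* summed to at least 5 unique molecular identifiers (UMIs), while the contractile genes *Acta2*, *Tagln* and *Myh11* summed to at most 4, the endothelial genes *Cldn5* and *Flt1* to at most 3, and the microglial genes *Cx3cr1*, *Aif1* and *Csf1r* to 0. This rule found 288 pericytes among 44112 cells that had 500 to 4500 detected genes and under 10% mitochondrial UMIs, out of 49059 deposited barcodes. The WT group was 3 C57BL/6J mice, which gave 31, 21 and 65 pericytes. The *TgApp* ArcSwe group was 3 mice that carry human *APP* with the Arctic and Swedish mutations, a model of amyloid plaques and cerebral amyloid angiopathy, and they gave 35, 22 and 114. All 6 mice were males aged 12 months, each was 1 library, and the cells came from cerebral vascular fragments captured with beads against CD31. The promoter that drives the transgene is not given in the sources used here. The pericytes of a mouse summed to between 63670 and 236991 UMIs, with a median of 2012 to 4278.5 UMIs per cell.

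Pericytes are the mural cells of capillaries. They lie inside the capillary basement membrane, are recruited by endothelial PDGF-B through the receptor PDGFRβ, and in the brain are needed for the blood-brain barrier to form and hold. Vascular smooth muscle cells (VSMC) are the contractile mural cells of arteries, arterioles and veins. The ATP-sensitive potassium channel of pericytes, built from the pore subunit Kir6.1 (*Kcnj8*) and the sulphonylurea receptor SUR2 (*Abcc9*), opens when cellular ATP falls and hyperpolarises the cell.

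The label was checked with *Grm3*, a metabotropic glutamate receptor gene that took no part in the rule. Its level was 753, 785 and 1851 counts per 1000000 UMIs (CPM) in the pericytes of the WT mice and 569, 743 and 1051 CPM in those of the ArcSwe mice. In VSMC, chosen by the mirror image of the rule (1835 cells), *Grm3* had 4 UMIs in all 6 mice together, and in endothelial cells its mean level was 4.37 CPM. After each cell was thinned to 1000 UMIs, a *Grm3* UMI was found in 49.3% ± 10.9 (SD, n = 6 mice) of the 267 pericytes deep enough, 21 being left out. The same share was 0% in VSMC, 0.108% to 0.429% in endothelial cells and 0.105% to 0.683% in microglia, so the gene marked the pericytes far above these other cells. The source of the few UMIs in the other cells was not tested. Without thinning the pericyte share was 66.7%. *Xist* had 0 UMIs, as male animals give.

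The edges of the rule held few cells. Among cells that met the other limits, 1171 had none of the 4 pericyte UMIs and 37 had 1, whereas 3 cells had 4 UMIs, just outside, and 4 cells had 5, just inside. Neither the 3 cells outside nor the 4 inside held a *Grm3* UMI, and they held 6 and 1 *Pdgfrb* UMIs respectively. Further out, 7 cells with 2 UMIs held 14 *Grm3* and 5 *Pdgfrb* UMIs, so the rule left out some cells with *Grm3*. At the contractile limit 6 cells had 4 UMIs and 7 had 5, and at the endothelial limit 11 cells had 3 UMIs and 11 had 4. *Grm3* was at 364 CPM just inside and 58.1 CPM just outside the contractile limit. At 6, 7, 8 and 9 contractile UMIs it was at 371, 1964, 937 and 47.0 CPM, from 3 to 7 cells each. The contractile limit therefore also left out some cells with *Grm3*. At the endothelial limit *Grm3* was at 1192 CPM inside and 1307 CPM outside. A further 565 cells reached 5 UMIs of both the pericyte and the contractile genes and belonged to neither class. In these cells the mean level of *Vtn* was 2266 CPM, that of *Acta2* 9070 CPM and that of *Kcnj8* 35.3 CPM. A UMI of *Kcnj8*, *Abcc9* or *Atp13a5* was in 43 of 92, 35 of 83 and 37 of 78 of them in WT mice. In ArcSwe mice it was in 44 of 98, 29 of 68 and 66 of 146.

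Libraries from the third mouse of each genotype stood apart. They held the most pericytes, and microglial transcripts other than the 3 gate genes summed to 1114 CPM in pericytes of WT mouse 3 and 1506 CPM in those of ArcSwe mouse 3, against 220 to 494 CPM in the other 4 mice. The defining genes *Cx3cr1*, *Aif1* and *Csf1r* were at 0 because the rule required it. Haemoglobin and *Alas2* transcripts moved in the same way, at 476 and 776 CPM against 17 to 63 CPM. The share of pericytes with 3 or more of the other microglial UMIs was high in the same libraries, 27 of 65 and 55 of 114 cells, against 1 of 31 and 3 of 21 in WT mice 1 and 2 and 8 of 35 and 4 of 22 in ArcSwe mice 1 and 2. Endothelial transcripts outside the rule summed to 196 to 519 CPM, fibroblast transcripts to 111 to 485 CPM and astrocyte transcripts to at most 29.5 CPM, with *Aqp4* and *Gfap* at 0. Lymphocyte transcripts, all of them *Cd79a*, summed to 67.0 CPM in ArcSwe mouse 1, 4.22 CPM in ArcSwe mouse 3 and 0 in the other mice. The part that this RNA has in the values below was not tested, except where the counts were repeated without the cells concerned. Library pairs shared 4 to 42 barcodes, and none of these were pericytes.

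The 4 genes of the rule set the level that follows, which is therefore a description. *Kcnj8*, at chr6:142564837-142571614 on the minus strand of mm10, had 1566, 801 and 873 CPM in WT and 1047, 1042 and 1228 CPM in ArcSwe pericytes. *Abcc9*, its neighbour on the same strand at chr6:142587862-142702315, had 1546, 1178 and 1525 CPM in WT and 1206, 877 and 1447 CPM in ArcSwe. Both genes, which are in the rule, had UMIs in the pericyte sum of every mouse, and a sum does not show both in the same cell. For each gene the ranges of the genotypes overlapped. In VSMC the 2 genes had 5 and 11 UMIs in total. *Atp13a5*, a P5-type transporting ATPase, had 2369.5, 1523 and 2939 CPM in WT and 1256, 1929 and 2114 CPM in ArcSwe. *Vtn*, the secreted adhesion protein vitronectin, had 14207, 9738 and 12688 CPM in WT and 10442, 7656 and 15769 CPM in ArcSwe, against a mean of 127 CPM in VSMC. The plot of marker levels by mouse places these genes beside *Pdgfrb* and 2 contractile genes.

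**Figure D1:**
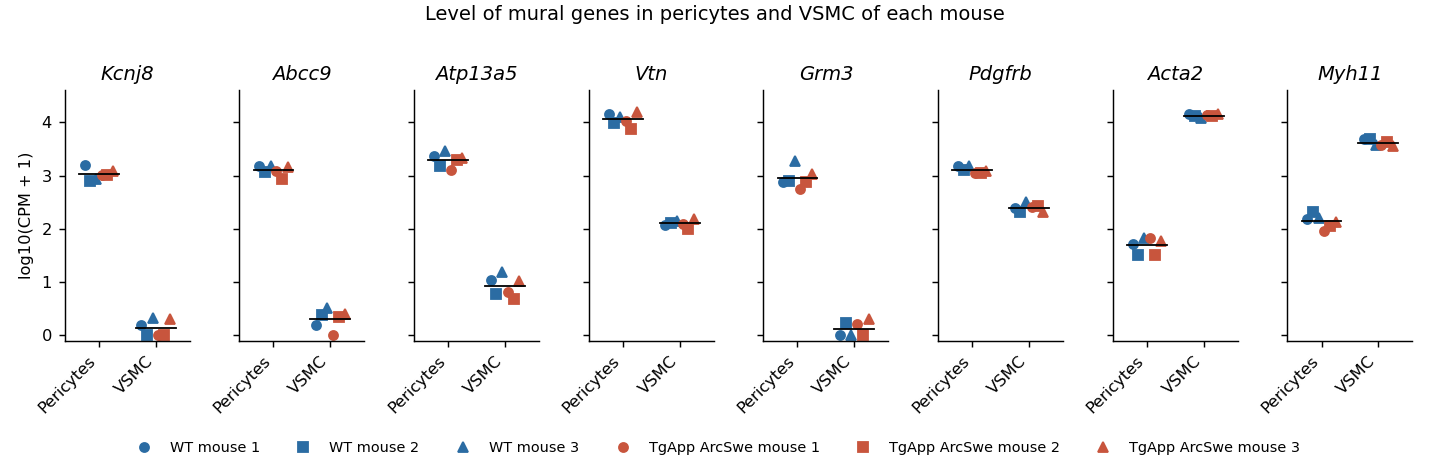
Level of 8 mural genes as log10(CPM + 1) in the summed pericytes and summed VSMC of each mouse, with 1 point per mouse (blue WT, red ArcSwe) and a line at the mean of the 6 mice. *Grm3* lies between 569 and 1851 CPM in pericytes, the 4 genes that chose the cells and *Pdgfrb* are higher in pericytes, and *Acta2* and *Myh11*, also in the rule, are higher in VSMC.

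Promoter windows from RefSeq on GRCm38.p6, from 250 bases before to 50 bases after a gene's start, are printed for the 2 channel subunits and for 2 genes that contrast pericytes with VSMC. The *Kcnj8* window is chr6:142571565-142571864, the *Abcc9* window chr6:142702225-142702524, the *Lama2* window chr10:27616893-27617192 and the *Myl6* window chr10:128492960-128493259, all on the minus strand. The single capital letter marks the base at the gene's start, and a run of 10 capitals marks a CArG box, the site read by serum response factor in muscle genes, searched on both strands in its strict consensus form, so that variants of it are not counted.
Kcnj8: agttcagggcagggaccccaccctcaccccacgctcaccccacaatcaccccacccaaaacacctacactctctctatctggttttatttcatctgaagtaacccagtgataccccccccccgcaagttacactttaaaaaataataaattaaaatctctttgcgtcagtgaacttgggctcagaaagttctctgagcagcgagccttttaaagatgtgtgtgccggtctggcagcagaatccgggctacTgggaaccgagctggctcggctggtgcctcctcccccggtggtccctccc
Abcc9: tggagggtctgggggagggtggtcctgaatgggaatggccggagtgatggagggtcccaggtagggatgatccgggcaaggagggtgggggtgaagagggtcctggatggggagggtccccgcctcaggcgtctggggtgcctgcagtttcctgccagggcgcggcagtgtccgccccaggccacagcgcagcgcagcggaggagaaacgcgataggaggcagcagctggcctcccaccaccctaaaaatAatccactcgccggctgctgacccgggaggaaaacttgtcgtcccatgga
Lama2: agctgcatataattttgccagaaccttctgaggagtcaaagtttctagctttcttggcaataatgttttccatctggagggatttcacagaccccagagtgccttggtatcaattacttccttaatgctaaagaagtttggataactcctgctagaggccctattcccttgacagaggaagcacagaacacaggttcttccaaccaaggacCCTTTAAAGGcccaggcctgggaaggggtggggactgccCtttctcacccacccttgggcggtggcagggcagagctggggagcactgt
Myl6: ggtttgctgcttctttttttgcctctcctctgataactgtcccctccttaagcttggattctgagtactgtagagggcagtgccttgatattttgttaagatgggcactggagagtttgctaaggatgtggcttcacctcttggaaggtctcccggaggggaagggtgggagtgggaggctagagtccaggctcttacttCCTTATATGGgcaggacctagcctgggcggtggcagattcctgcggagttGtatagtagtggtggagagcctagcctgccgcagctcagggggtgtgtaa
The *Kcnj8* and *Abcc9* windows held no CArG box, and neither did those of the other 3 pericyte markers. The *Lama2* box began 39 bases before the start and the *Myl6* box 50 bases before it. A box was found in 488 of the 27025 genes with a window, or 1.81%. It was found in 2 of the 111 matched genes that were at least 4 times higher in pericytes than in VSMC (1.8%) and in 5 of the 55 matched genes at least 4 times higher in VSMC (9.09%). Of the 8 matched genes on the smooth muscle marker list 0 held a box of this strict form, while the window of the contractile gene *Myl9*, not on that list, held 1. A match of letters is not a bound site, and a window without one may hold a variant box.

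Against VSMC, the whole profile was described in each mouse without a test, because the rule chose both cell types on genes of this contrast. Of 2253 genes at 50 CPM or more in pericytes of every mouse, 146 (6.48%) were at least 4 times higher than in VSMC in all 6 mice. Of 2622 genes at 50 CPM or more in VSMC of every mouse, 75 (2.86%) were at least 4 times higher there. Where a class had fewer than 3 UMIs of a gene in a mouse, 3 UMIs were used and the ratio is a lower bound. In a mouse, 3 UMIs were 12.7 to 47.1 CPM in pericytes but 1.52 to 3.79 CPM in VSMC. A VSMC gene near 50 CPM could therefore not reach 4 times in every mouse, and the counts of the 2 directions are not to be compared. The counts for gene lists below keep the same minimum of 50 CPM, so a list member under it is not counted on either side. By median over the mice the ratio was at least 660-fold for *Abcc9*, 538-fold for *Kcnj8* and 407-fold for *Grm3*, of which the first 2 were in the rule.

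Some receptor and channel genes were higher in pericytes and others were not. *Grm7*, a metabotropic glutamate receptor gene like *Grm3*, had a mean of 1755 CPM ± 806 (SD, n = 6) in pericytes and 11.1 CPM in VSMC, and the ratio in single mice ran from 119 to 377. *Itpr2*, an intracellular calcium release channel gene, had 315 CPM in pericytes and 18.0 CPM in VSMC. The receptor *P2ry14*, for UDP-sugars, had a median ratio of 6.45. Other channels did not separate the cell types in this direction. *Cacna1c*, the pore of the L-type calcium channel, had a median ratio of 1.37. *Kcnma1*, the large-conductance calcium-activated potassium channel, had 1 UMI in all pericytes and 344 CPM in VSMC, and *Ryr2*, a ryanodine receptor, had 14.3 and 187 CPM. Of the 17 genes on the ion channel list, 8 were at 50 CPM or more in pericytes and 8 in VSMC of every mouse. In pericytes 4 were at least 4 times higher in every mouse, 2 of them (*Kcnj8* and *Abcc9*) by the rule, beside 6.48% of all such genes. At least 4 times lower was 1, beside 2.86%. Of 17 genes for vasoactive receptors and signalling, 9 were at 50 CPM or more in pericytes. Of these 2 were 4 times higher, beside 6.48%, and none of the 17 was 4 times lower.

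Transporters gave the next group, with 7 of 16 list members at 50 CPM or more in pericytes of every mouse. Of these 5 were at least 4 times higher in every mouse, *Atp13a5* among them by the rule, beside 6.48% of all such genes. *Slc6a20a*, a proline transporter gene, had 679 CPM ± 247 against 5.66 CPM in VSMC. *Slc6a13*, a GABA and taurine transporter, was found in the pericytes of 5 mice and had 0 UMIs in VSMC. *Slc38a11*, an amino acid transporter gene, had 578 and 500 CPM, so the group did not move as one.

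Secreted and matrix genes were mixed. *Ptn*, the growth factor pleiotrophin, had 5227, 3031 and 4301 CPM in WT and 3936, 4550 and 5907 CPM in ArcSwe pericytes, against a mean of 16.6 CPM in VSMC. *Lama2*, the laminin α2 chain of the basement membrane, had 971 CPM ± 187 against 40.1 CPM. On a basement membrane list of 23, 16 genes were at 50 CPM or more in pericytes of every mouse. Of these 2 were 4 times higher, *Lama2* and, by the rule, *Vtn*, beside 6.48% of all such genes. *Sparcl1*, a matrix glycoprotein gene on the same list, had 1286 CPM in pericytes and 3663 CPM in VSMC. *Ifitm1*, an interferon-induced membrane protein gene, had 845 CPM against 5.76 CPM. The remaining genes among the 15 of highest ratio were *Pde7b*, a cAMP phosphodiesterase, *Ano4*, of the anoctamin family, *Adgrl3*, the adhesion receptor latrophilin 3, *Plxdc1*, *Pla1a*, a phospholipase, *Cthrc1* and *Gng2*, a G-protein γ subunit, with median ratios of at least 101 to 156, since 3 to 6 of the 6 values of each were bounds. Several of these were not restricted to pericytes: *Pde7b* had 134 CPM in endothelial cells and *Gng2* 177 CPM in microglia.

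Generic mural genes differed in how far they separated the cell types. *Pdgfrb* had 1485, 1256 and 1486 CPM in WT and 1130, 1135 and 1207 CPM in ArcSwe pericytes, a median of 5.35 times the level in VSMC. *Rgs5*, a regulator of G-protein signalling, had a median ratio of 8.86, and *Notch3*, the mural Notch receptor, one of 1.94. *Cspg4*, which encodes the NG2 proteoglycan, had 461 and 299 CPM, and *Anpep*, the aminopeptidase CD13, had 121 CPM in pericytes and was under 3 UMIs in VSMC of 5 of the 6 mice. *Des*, the intermediate filament desmin, was lower in pericytes, at 238 against 657 CPM. Of the 17 genes on a list of pericyte-enriched transcripts, 11 were at least 4 times higher in every mouse, beside 6.48% of all genes at 50 CPM or more. The members were chosen with earlier results of these data known, so the count is a description. That list included *Ndufa4l2*, *Higd1b* and *Colec12*, with median ratios of 7.12, 5.54 and 16.3. The mitochondrial subunit *Cox4i2*, a hypoxia-linked isoform like *Ndufa4l2*, had a median ratio of 5.82.

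**Figure D2:**
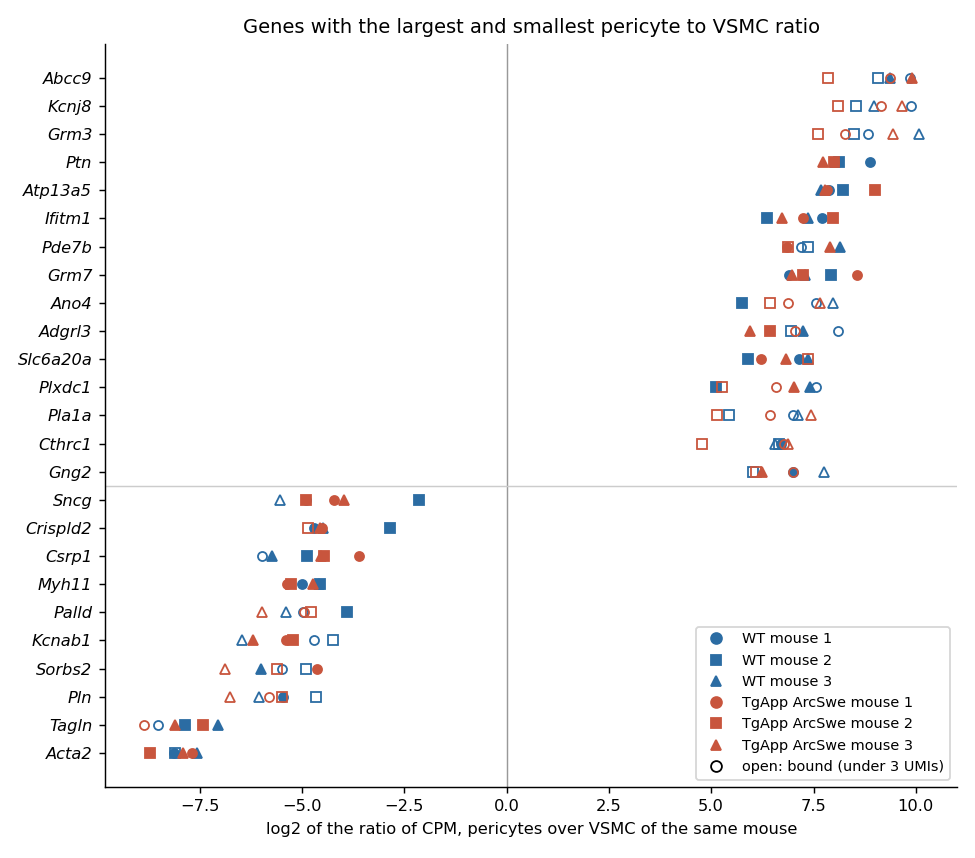
Log2 of the ratio of CPM in pericytes to CPM in VSMC of the same mouse, 1 point per mouse (blue WT, red ArcSwe), for the 15 genes of highest and the 10 of lowest median ratio. Open points are bounds set by 3 UMIs. *Abcc9* and *Kcnj8* lead the first set with medians of at least 660 and 538, and *Acta2* and *Tagln* end the second, where VSMC were at least 256 and 250 times higher by median.

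Contractile genes were the mirror image, and 12 of 16 list members were at least 4 times lower in pericytes in every mouse, 3 of them by the rule. All 16 were at 50 CPM or more in VSMC, and the share over all such genes was 2.86%. Outside the rule, *Pln*, phospholamban, was at least 50.0 times lower by median, *Sorbs2*, an actin-linked adaptor, at least 46.7 times and *Kcnab1*, a potassium channel β subunit, at least 39.3 times. *Palld* followed at 31.1 times or more, a lower bound, then *Csrp1*, *Crispld2* and *Sncg*, the lowest of them at 22.9 times. *Palld* and *Csrp1* are actin-associated. *Myl9*, the regulatory light chain, had 1185 CPM ± 118 in pericytes and 5261 CPM in VSMC. *Cnn1* and *Actg2* had 0 UMIs in the pericytes of all mice. *Cald1*, caldesmon, which binds actin in many cell types, had 3320 and 2714 CPM and a median ratio of 1.25, the only member of the contractile list over 1000 CPM in pericytes besides *Myl9*.

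Pericytes varied among themselves. Over 267 cells thinned to 1000 UMIs, the variance of a gene divided by its mean had a median of 1.13 over 760 genes. The highest were *Malat1*, *Mgp*, *Jun*, *Fos* and *Vtn*, and 8 of the first 20 were immediate early or heat shock genes, which made up 18 of the 760 ranked. The cells of the 6 mice were pooled, so differences between mice enter this rank, and *Vtn* was a gene of the rule. *Mgp*, matrix Gla protein, was the clearest case. In 17 cells (2, 2 and 2 from WT mice and 4, 5 and 2 from ArcSwe mice) it reached 20 UMIs or more, a limit chosen after the values were seen. Between 10 and 19 UMIs lay 16 cells, and 101 cells had none.

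The 17 cells were deeper, with a median of 6203 UMIs against 2313 in the other 271. Their summed level of *Vtn* was 1987 CPM against 14278 CPM, that of *Atp13a5* 181 against 2409 CPM and that of *Grm3* 162 against 1175 CPM. *Kcnj8*, at 831 and 1158 CPM, and *Abcc9*, at 917 and 1411 CPM, were much closer, as were *Pdgfrb*, at 1003 and 1325 CPM, and *Rgs5*, at 9753 and 7208 CPM. *Apoe* was at 2035 and 363 CPM, *Timp3*, an inhibitor of matrix metalloproteinases, at 2398 and 251 CPM, and *Id3*, a target of BMP signalling, at 2885 and 306 CPM. Of the 15 *Colec11* UMIs in all pericytes 14 were in these cells, and all 8 *Pdgfra* UMIs were in 1 of them. Of fibroblast markers, *Dcn* was at 373 and 45.2 CPM, *Col3a1* at 296 and 37.6 CPM and *Lum* at 6 and 0 UMIs, and *Anxa1* was at 659 and 73.8 CPM. These values go against the pericyte label for some or all of the 17 cells. Of contractile genes, which the rule limits in each cell, *Acta2* had 3 UMIs and *Tagln* 0 over the 17 cells, *Myh11* was at 124 and 140 CPM and *Myl9* at 821 and 1229 CPM. Since *Mgp* and *Vtn* both enter this choice of cells, the values are a description and no cell type name is given to them.

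**Figure D3:**
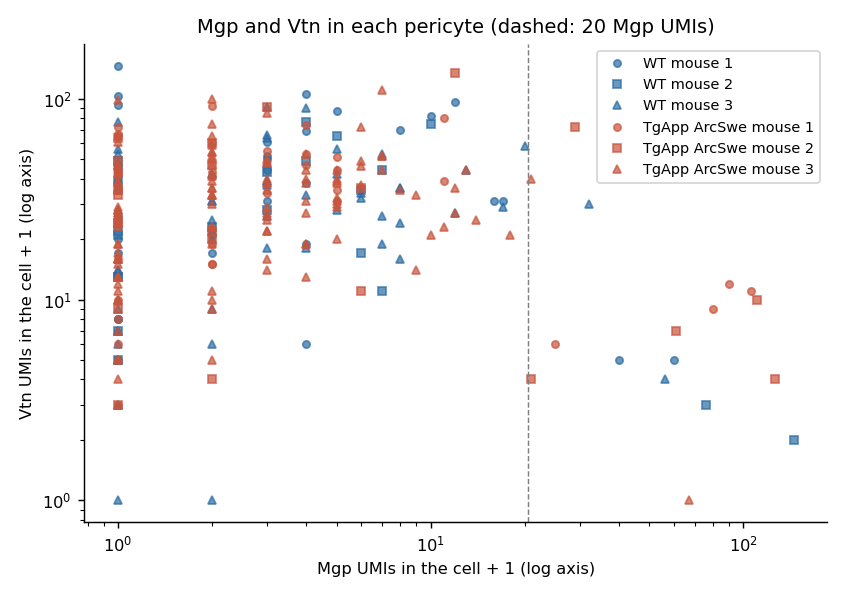
UMIs of *Mgp* (horizontal) and *Vtn* (vertical), each plus 1 on log axes, in each of the 288 pericytes (blue WT, red ArcSwe, 1 point per cell), with a dashed line at 20 *Mgp* UMIs. Past the line lie 17 cells, of which 14 have under 15 *Vtn* UMIs. The same holds for 37 of the 101 cells with 0 *Mgp* UMIs and 0 of the 16 with 10 to 19.

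The share of pericytes was compared between genotypes. Pericytes were 0.500%, 0.368% and 0.796% of kept cells in WT and 0.423%, 0.925% and 0.851% in ArcSwe mice. Counting alone left wide intervals, for instance 0.352% to 0.708% (95% Wilson) for WT mouse 1 and 0.611% to 1.40% for ArcSwe mouse 2, which had 2379 kept cells. The group means were 0.554% ± 0.219 and 0.733% ± 0.271 (SD, n = 3 each), and the difference of 0.179 percentage points was smaller than the spread between mice (exact two-sided permutation test, p = 0.4). Among mural cells, meaning pericytes, VSMC and cells at or over both sums, pericytes were 6.71%, 5.77% and 12.4% in WT and 8.05%, 11.6% and 16.0% in ArcSwe. The means were 8.29% ± 3.59 and 11.9% ± 3.98 (exact two-sided permutation test, p = 0.3, n = 3 each). The groups overlapped in both measures, and 3 mice against 3 allow no p under 0.1. The difference was 0.299 points of kept cells and 5.63 of mural cells without WT mouse 3, and 0.120 and 1.52 without ArcSwe mouse 3. In kept cells it was 0.0830 without ArcSwe mouse 2, 0.0854 without WT mouse 2 and 0.334 without ArcSwe mouse 1. Cells were captured through the endothelial antigen CD31, so these are shares of captured cells and not of the tissue. The microglial limit also removed cells unevenly. In WT mice 20 of 167, 24 of 152 and 88 of 263 kept cells with at least 5 pericyte UMIs were over it. In ArcSwe mice 66 of 229, 21 of 121 and 269 of 630 were, cells over another limit included. The effect of this loss on the shares was not tested.

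**Figure D4:**
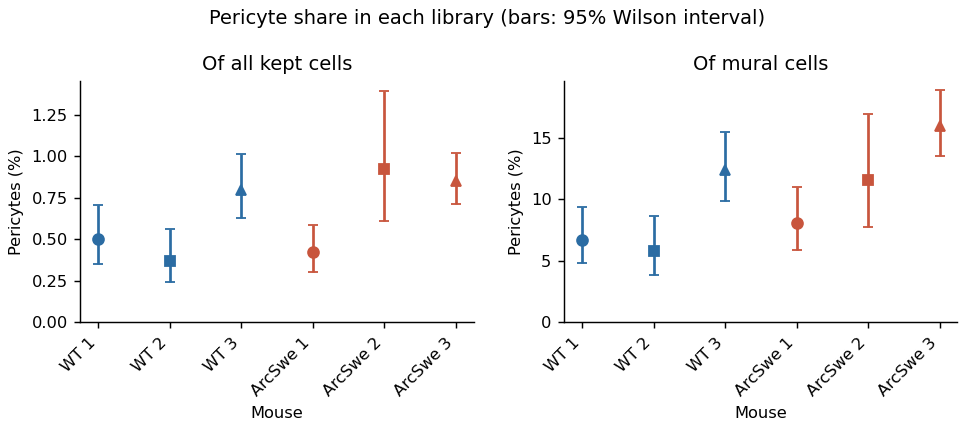
Pericytes as a percentage of all kept cells (left) and of mural cells (right) in each mouse, with the 95% Wilson interval as the bar. WT and ArcSwe mice overlap in both panels, from 0.368% to 0.925% of kept cells and from 5.77% to 16.0% of mural cells.

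Gene levels were then compared between genotypes in pericyte sums of the 6 mice. Of 2250 genes tested with edgeR's quasi-likelihood test, 0 (0%) passed an adjusted p of 0.05 (Benjamini-Hochberg), 78 (3.47%) had an unadjusted p under 0.05, and the smallest adjusted p was 0.0919. DESeq2 called 0 and found 29 at an unadjusted p under 0.05. The median log2 fold change was -0.03 and the median standard error 0.33. In 85 genes (3.78%) every ArcSwe mouse lay above every WT mouse and in 117 (5.2%) every one lay below.

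The 10 genes of smallest p among those whose groups did not overlap did not pass the test and are given as values. *Gm26532*, a long non-coding RNA gene at chr8:84208920-84209609 next to the microRNA genes *Mir27a* and *Mir24-2*, had 112, 110 and 104 CPM in WT and 302, 310 and 338 CPM in ArcSwe pericytes (log2 fold change 1.56, SE 0.26, edgeR adjusted p = 0.0919). *Adamts1*, a secreted metalloproteinase that cleaves matrix proteoglycans, had 61.0, 62.8 and 52.1 CPM in WT and 234, 382 and 101 CPM in ArcSwe (log2 fold change 1.94, SE 0.50). Of its 37 UMIs in ArcSwe mouse 2, 19 were in 1 cell, and all 6 in WT mouse 1 were in 1 cell. *Kcne4*, a potassium channel β subunit, was at 40.7, 31.4 and 39.1 CPM and at 92.1, 526 and 92.8 CPM. Its highest value came from 1 cell, which held 44 of the 51 UMIs of ArcSwe mouse 2. *Klf6*, *Apold1* and *Meg3* had log2 fold changes of 1.11, 1.03 and 1.05, and *Klf6* was at 0.46 without pericytes of 3 or more other microglial UMIs, with 17 of its 42 UMIs in ArcSwe mouse 1 from 1 cell. On the other side *Ctnna3*, an α-catenin, was at 112, 157 and 254 CPM and at 58.6, 82.5 and 46.4 CPM (log2 fold change -1.62, SE 0.40), and *St6gal1*, *Galnt1* and *Fubp1* had log2 fold changes of -1.16, -1.06 and -0.96. *St6gal1* and *Galnt1* both encode glycosyltransferases. The adjusted p from edgeR was 1.00 for each of these apart from *Gm26532*.

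None of the pericyte markers passed. The rule chose cells on 4 of the 5, all but *Grm3*, so their values are a description. The median log2 fold change was -0.25, with *Grm3* at -0.53 (SE 0.37), *Atp13a5* at -0.37 (SE 0.31), *Abcc9* at -0.25 (SE 0.27), *Vtn* at -0.10 (SE 0.33) and *Kcnj8* at 0.05 (SE 0.29). No member of a list below passed the adjusted threshold either, and each list is given by how many members lay on each side, beside a median of -0.03 over all genes tested. Of 14 mural identity genes 6 were higher and 8 lower in ArcSwe, with a median of -0.09, and 2 of the 14, *Heyl* and *Pdgfrb* (log2 fold change -0.28, SE 0.25), lay below WT in every ArcSwe mouse, beside 5.2% of all genes. The largest value of that list went the other way, *Des* at 0.74 (SE 0.32), with overlap. Of 8 ion channel genes 1 was higher and 7 lower, with a median of -0.27, and of 7 transporter genes 1 was higher and 6 lower, with a median of -0.22. Basement membrane genes gave 5 higher and 12 lower of 17, and contractile genes 4 higher and 6 lower of 10. *Myh11*, which the rule caps, and *Mylk* lay below WT in every ArcSwe mouse, 2 of 10 beside 5.2% of all genes, and *Des* is also on the contractile list. Smooth muscle transcripts outside the rule summed to 1445 CPM in pericytes of WT mouse 2 and to 713 to 812 CPM in the other mice, and without WT mouse 2 the contractile median turned from -0.06 to 0.22. The ion channel median was -0.06 without WT mouse 3, and the transporter median ran from -0.49 without ArcSwe mouse 3 to -0.05 without ArcSwe mouse 2. The mural identity median was 0.08 without WT mouse 3.

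Notch, TGFβ and BMP signalling gave 5 genes higher and 7 lower, with a median of -0.09 that turned to 0.24 without WT mouse 2 and to 0.18 with at least 8 pericyte UMIs per cell. *Nrarp*, a target gene and inhibitor of Notch signalling, had 132, 126 and 111 CPM in WT and 41.9, 31.0 and 80.2 CPM in ArcSwe (log2 fold change -1.07, SE 0.42), and *Heyl*, another Notch target, had a log2 fold change of -0.57 (SE 0.27). *Notch3* itself had -0.12 (SE 0.27). The groups did not overlap for 3 of the 12, *Nrarp*, *Heyl* and *Bmp5*, a BMP ligand at -0.53 (SE 0.28), beside 5.2% of all genes in that direction. On the higher side of the list *Id3* was at 0.98 (SE 0.53), *Bmp4* at 0.92 (SE 0.51) and *Bmpr2* at 0.53 (SE 0.32), all with overlap. The 17 *Mgp*-rich cells held 302 of the *Id3* UMIs and the other 271 pericytes held 203.

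Genes for amyloid handling gave 8 higher and 4 lower of 12, with a median of 0.05 that turned to -0.14 without ArcSwe mouse 3 and to -0.03 without the *Mgp*-rich cells. Mouse *App* was at 620, 565 and 456 CPM in WT and 486, 506 and 422 CPM in ArcSwe, and the human transgene cannot be seen as a gene of its own in the mouse reference. *Apoe*, the lipid carrier, was at 712, 236 and 267 CPM in WT and 913, 1341 and 376 CPM in ArcSwe (log2 fold change 1.10, SE 0.46), with overlap between the groups. The 17 *Mgp*-rich cells, of which 11 were from ArcSwe mice, held 213 of the *Apoe* UMIs and the other 271 pericytes held 241. *B2m*, the light chain of MHC class I, was at 203, 283 and 300 CPM in WT and 352, 392 and 405 CPM in ArcSwe (log2 fold change 0.55, SE 0.27). Its groups did not overlap, beside 3.78% of all genes in that direction. *Casp4*, an inflammatory caspase, had 0, 0 and 1 UMIs in WT and 5, 2 and 9 UMIs in ArcSwe pericytes, too few to enter the test. *Il6*, a cytokine gene, had 0 UMIs in WT pericytes and 17, 18 and 8 in ArcSwe, from 2 cells per mouse, 1 of which held 16, 11 and 7 of them.

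Of 17 pericyte-enriched genes 6 were higher and 11 lower in ArcSwe, with a median of -0.08 that ran from -0.32 without ArcSwe mouse 3 to -0.0008 without ArcSwe mouse 2, and of 10 genes for vasoactive receptors and signalling 4 were higher and 6 lower, with a median of -0.05. *Ndufa4l2*, *Higd1b* and *Cox4i2* lay at -0.13, -0.23 and -0.31 on the log2 scale, and the 7 genes for oxygen and mitochondria split into 3 higher and 4 lower. *Ptn* was at 0.21 (SE 0.29) in a group of 5 genes for growth factors and their receptors, *Pdgfrb* included, of which 3 were higher and 2 lower. The 3 interferon-response genes that could be tested were all higher, *Ifitm3* at 0.41 (SE 0.27), *Ifi27* at 0.30 (SE 0.27) and *Irf1* at 0.65 (SE 0.66). Their median of 0.41 was 0.18 without WT mouse 3. The 3 MHC class I genes were also higher, with a median of 0.25 that was 0.05 without the *Mgp*-rich cells. It was 0.14 without ArcSwe mouse 1 and 0.39 without WT mouse 2. Clock genes gave 3 higher and 4 lower, with *Rora* at -0.15 (SE 0.35) and *Cry2*, a repressor of the clock, at 1.29 (SE 0.49) without overlap, beside 3.78% of all genes in that direction. Glucocorticoid-responsive genes gave 4 higher and 1 lower, with *Nfkbia* at 0.88 (SE 0.33) and *Klf9* at 0.14 (SE 0.31). The glucocorticoid median of 0.44 was -0.04 without the *Mgp*-rich cells, -0.0023 without ArcSwe mouse 2 and 1.16 without WT mouse 2, and the clock median turned from -0.09 to 0.27 without WT mouse 2. Of 4 inflammatory mediators 1 was higher and 3 lower, *Cxcl1*, a neutrophil chemokine, at 1.36 (SE 0.56) and *Cxcl12* at -0.28 (SE 0.33).

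The immediate early and heat shock genes had a median log2 fold change of 0.63 with all 6 mice. They encode transcription factors, their regulators and chaperones that cells induce quickly on many stimuli, tissue dissociation among them. Of 19 members 18 had a higher and 1 a lower fitted level in ArcSwe, 6 had an unadjusted p under 0.05, against 3.47% of all genes tested, and 0 passed the adjusted threshold. In 4 of the 19 every ArcSwe mouse lay above every WT mouse, beside 3.78% of all genes, and in 0 every one lay below. Summed over the list, pericytes had 24854, 33407 and 11385 CPM in WT and 36443, 40023 and 28558 CPM in ArcSwe mice, so that WT mouse 2 lay above ArcSwe mouse 3. WT mouse 3 was the lowest mouse in pericytes, VSMC and endothelial cells alike, at 26024 CPM in VSMC and 18651 CPM in endothelial cells. Without WT mouse 3 the median of the list in pericytes was 0.27, and without WT mouse 2 it was 1.07. *Klf2* was at 336, 942 and 300 CPM in WT and 879, 960 and 1186 CPM in ArcSwe (log2 fold change 1.01, SE 0.39), and *Fos* at 3580, 6141 and 1388 CPM and at 5560, 6469 and 3667 CPM (log2 fold change 0.52, SE 0.43).

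**Figure D5:**
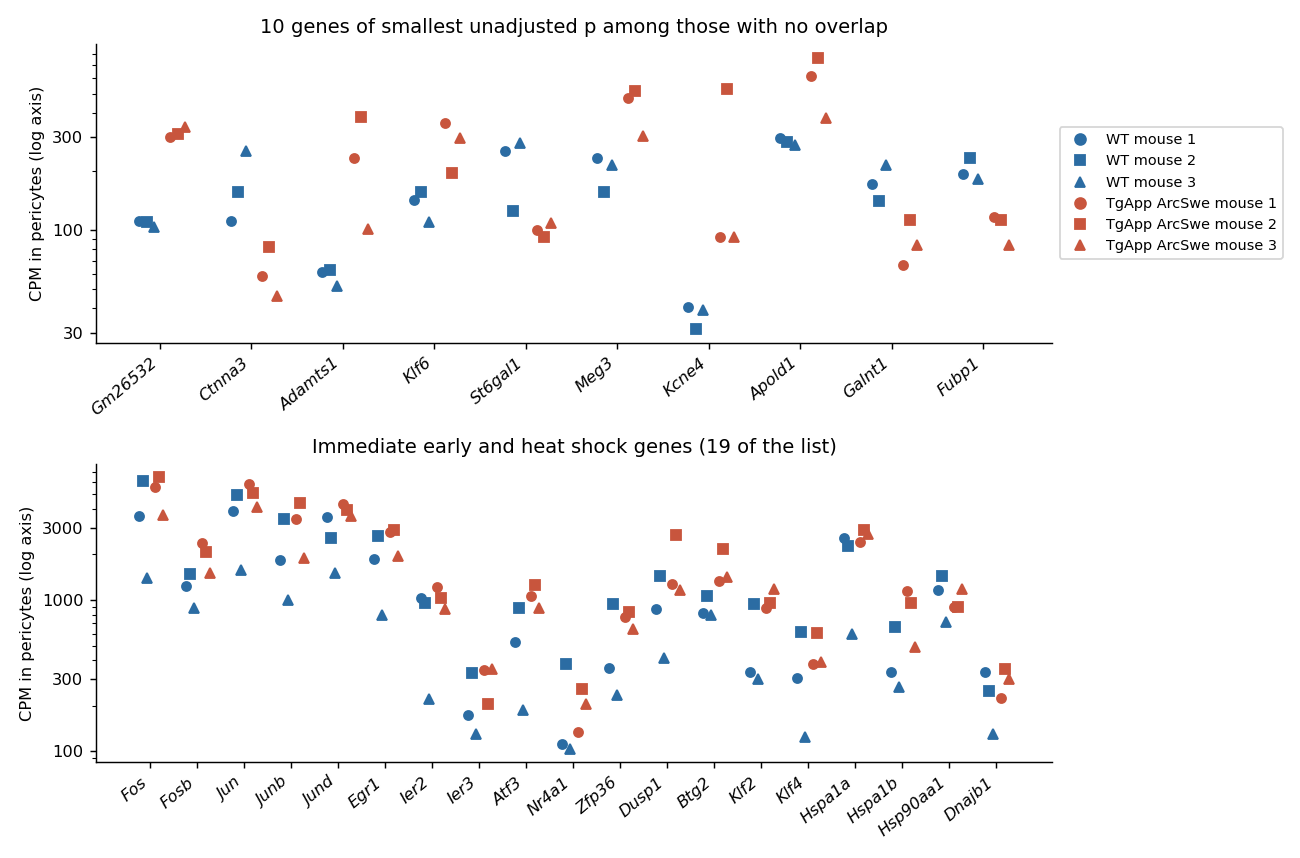
CPM in the summed pericytes of each mouse on log axes, 1 point per mouse (blue WT, red ArcSwe), for the 10 genes named by p (upper) and the 19 immediate early and heat shock genes (lower). The upper points do not overlap between genotypes because that was part of the choice, and in the lower panel WT mouse 3, the blue triangle, is the lowest of the 6 mice for every gene shown.

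The genotype effect was compared with that of VSMC from the same mice. In VSMC 0 of 9507 genes passed edgeR's test (0%), with 438 at an unadjusted p under 0.05, and DESeq2 called 1, *Mgp*. For the difference of the effects, fitted with the mouse as a block, 0 of 7850 genes (0%) passed edgeR's adjusted threshold, with 341 (4.34%) at an unadjusted p under 0.05 and 0.741 as the smallest adjusted p. In VSMC 14 of the 19 immediate early and heat shock genes were higher and 5 lower, with a median of 0.08. The difference between pericytes and VSMC was positive for 18 of the 19, with a median of 0.65, 13 had an unadjusted p under 0.05 and 0 passed, so the larger shift in pericytes was not established gene by gene.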

How the data were processed

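The authors captured vascular fragments from 1 cerebral hemisphere per mouse with CD31 beads and, per the submitters' processing notes, processed the libraries with Cell Ranger 7.0.0. The study's methods give mm10 with *Clec7a* and human *NOTCH3* added as the reference. The deposited matrices hold raw UMI counts for 32287 features, 1 file per mouse. Human *NOTCH3* had 0 UMIs. Members and gene lists were chosen with earlier results of these data known. Cells were filtered and classed as described in the report, and no doublet caller was run. The limits on other cells' genes exclude only cells over those sums, and mixed cells under them were not looked for. Counts were summed per mouse and class, and 2914 ribosomal, mitochondrial, pseudogene and Rik features were removed. The sums were tested, after a check of the scripts on simulated data, with edgeR 4.0.16 (filterByExpr, TMM, glmQLFit, Benjamini-Hochberg) under R 4.3.3. Genotype was the sole covariate. The alternatives included DESeq2 1.42.0, no filter, stricter cell limits and leaving out each mouse. The difference between cell types was fitted with the mouse as a block. CPM is counts per 1000000 UMIs of a summed class, and the floor for ratios was 3 UMIs. Shares carry 95% Wilson intervals, which cover counting error only, and exact two-sided permutation tests. Gene positions are from GENCODE vM21, and promoter windows from RefSeq on GRCm38.p6. Named genes were the 10 of smallest p without overlap between genotypes, the 4 most abundant members of each list, the 15 and 10 genes of highest and lowest ratio to VSMC and the marker genes, with others chosen after their values were seen. The mice are separate animals, and each gave 1 library. Some items are not reported here.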

Additional observations from a re-analysis of the deposited data

How the results depend on the processing

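The count of 0 genotype calls in pericytes held under 13 of 17 alternatives. Without a filter on low counts 12 genes were called, among them *Cd74*, *Il6*, *Kcne4*, *Igkc* and *Ly6d*. *Cd74* had 1 UMI in WT and 63 in ArcSwe pericytes, *Igkc* 1 and 28, and *Ly6d* 0 and 20. With the replicate number as a block 3 were called, *Gm26532*, *Kcne4* and *Adamts1*. The labels do not say whether shared numbers mark a batch. Deviations of same-numbered mice correlated at 0.0726, 0.0477 and 0.254 over 2250 genes, under 0.1 in 2 of 3 pairs, and the numbers were not taken as pairs. Differently numbered mice were not correlated, so these values cannot show whether same-numbered mice shared processing. The third mice of both genotypes shared high microglial and haemoglobin RNA. Leaving out single mice gave 0 to 2 calls, and the 2, *Adamts1* and *Il6*, came without ArcSwe mouse 3. Without the 17 *Mgp*-rich pericytes *Gm26532* alone was called (edgeR adjusted p = 0.0475), an alternative chosen after seeing the data, as was leaving out cells with microglial RNA, which gave 0. These genes were named after their values were seen. In VSMC DESeq2, also added after seeing the data, called 1 gene, *Mgp*. For the difference between cell types, 1 gene was called without a filter, *Dach1*, and leaving out single mice gave 0 to 4, with *Dach1* without WT mouse 2 and *Apoe*, *Kcne4*, *Dach1* and *Id3* without ArcSwe mouse 3. The cause was not tested. The difference in share kept its sign throughout, from 0.0533 to 0.334 points of kept cells and 1.52 to 5.63 of mural cells. Genes 4 times higher in pericytes numbered 118 to 172. Those 4 times higher in VSMC numbered 42 with *Cldn5* and *Flt1* at 0 UMIs, where fewer cells entered, and 74 to 106 otherwise. The *Grm3* share was 65.3% at 2000 UMIs and 66.7% without thinning. Depth limits the rest: pericytes of 1 mouse held as few as 63670 UMIs. List medians were unstable: the median of growth factors and receptors turned from 0.06 to -0.21 without WT mouse 3 and -0.22 without ArcSwe mouse 2, the vasoactive median from -0.05 to 0.13 without WT mouse 3, and the inflammatory median from -0.07 to 0.24 without WT mouse 2.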
